A study of Mus musculus with 6 samples.

Results

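The DNA repair and checkpoint genes are 37 named genes that sense, signal or mend DNA damage, in 7 roles from checkpoint kinases to polymerases. A gene was taken as hit when any annotation naming it in any variant list was exonic, splice or in an untranslated region (UTR). By that rule 24 of the 37 had at least 1 site, with 90 distinct sites among 40201 sites of this kind over all genes. Whole bone marrow and matched ear of 3 mice (animals 54 and 108, males, and 136, a female; 6 samples) had been exome sequenced. All were C57BL/6 mice carrying the P95H change of the splicing factor Srsf2, had been treated with tamoxifen in vivo, and are labelled 50 to 60 weeks old; the protocol gives this span as the time from tamoxifen to euthanasia of the moribund mice. The R26CreERT2 driver, which acts in many tissues, is named on every sample, but according to the design text one of the animals had hScl-CreERT with R26eYFP. No animal without Srsf2 P95H was among the samples used here, so marrow and ear share both the allele and the treatment.

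Cells answer DNA breaks and stalled replication forks through the kinases Atm and Atr, which activate checkpoint kinases and p53, the product of Trp53. Breaks are joined end to end or copied from the sister chromatid by homologous recombination, while mismatch repair corrects copying errors and base excision repair removes damaged bases such as oxidised guanine. In blood-forming cells these pathways guard stem cells against loss and transformation, and inherited defects in the Fanconi anaemia genes cause marrow failure in humans.

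Each sample had a list of all variants made with SAMtools, and marrow had been compared with ear of the same animal by VarScan2 and Strelka. These last 2 are called somatic lists below. A site in the lists of both marrow and ear of an animal is called inherited here, and a protein-altering site is one annotated with high or moderate impact on the gene. The all-variant lists held 24915 to 79759 sites per sample, with a median of 45 to 114 reads at coding sites. The variant in codon 95 of Srsf2 was carried by 19.3% to 49.1% of reads in the 3 marrows and by 40.3% to 62.2% in the 3 ears. DNA variant lists hold no measure that could check the labelled tissue against cell markers.

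The share of hit genes, 24 of 37 or 64.9%, stood beside 40.8% of the 21900 RefSeq coding genes. Gene size differed too: the 37 genes had a median span of 47.9 kb, against 17.2 kb over coding genes, and its part in the higher share was not tested. Checkpoint kinases, p53 and its regulators had a site in 7 of 8 genes, double-strand break repair in 6 of 9 and interstrand crosslink repair in 3 of 4. Mismatch repair, base excision repair, nucleotide excision repair and the polymerases had sites in 2 genes each, of 4, 4, 5 and 3. The genes with none were Chek2, Brca2, Palb2, Nbn, Msh3, Mlh3, Ogg1, Xrcc1, Pole, Fancd2, Ercc2, Ercc5 and Xpc. Of the 90 sites, 56 were inherited in at least 1 animal, and the somatic lists added 10, all from Strelka. The inherited sites lay in 12 genes and the Strelka calls in 9, with 3 genes (Atm, Atr and Pold1) in both. The same overlap over all coding genes was not counted here, so whether it is particular to these genes was not tested.

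**Figure D1:**
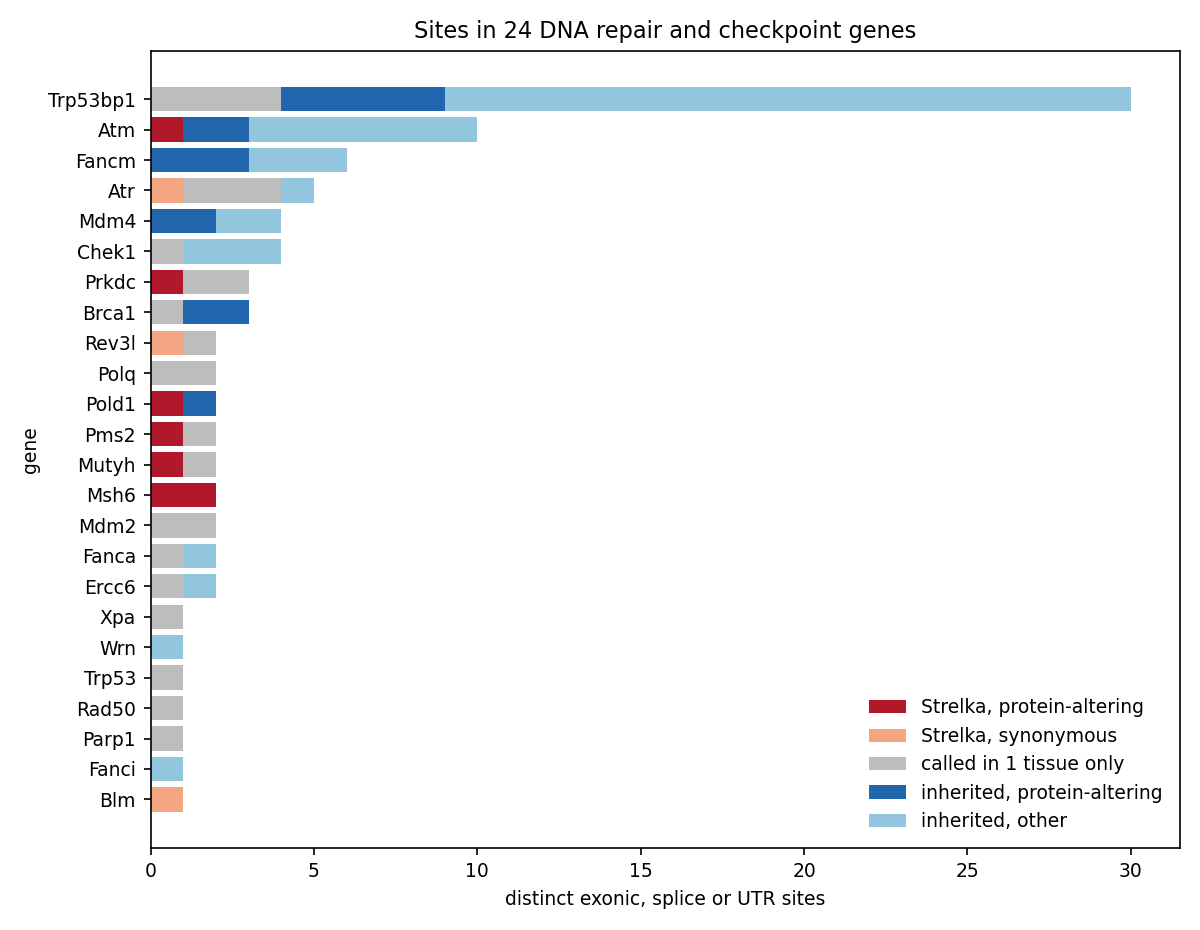
Number of distinct exonic, splice or UTR sites (horizontal axis) in each of the 24 genes with a site, stacked by class. Trp53bp1, with 30 of the 90 sites, leads, most of them inherited, whereas Msh6, Prkdc, Pms2 and Mutyh have protein-altering Strelka calls and no inherited site.

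Strelka, which weighs marrow against ear and gives each call a quality but no read count, passed 10 coding calls in these genes. All were single nucleotide changes; animal 54 had 5, animal 108 had 3 and animal 136 had 2. The exact Poisson interval of the total was 4.79 to 18.4 calls. Missense calls numbered 7, and 4 without animal 54. Over RefSeq coding genes 15.1% had an exonic, splice or UTR Strelka call, against 9 of the 37 genes (24.3%). A protein-altering Strelka call was found in 9.95% of coding genes and in 6 of the 37 (16.2%). Those of the 37 with a Strelka call had a median span of 80.2 kb and those without one 40.3 kb, and the part of gene length was not tested here either.

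Mismatch repair had 3 calls, all missense. In Msh6, which helps to recognise mismatched bases, D931Y (chr17:87986609, quality 19) was called in animal 108 and L871I (chr17:87986429, quality 16) in animal 136. Both lay in exon 4 of 10. Pms2, a mismatch repair endonuclease subunit, had D854Y in animal 108 (chr5:143931139, quality 32), in the last of 15 exons and near the end of a protein of 859 residues. The Msh6 calls had the lowest qualities of the 10 calls.

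Base excision repair had a single call, in Mutyh, the glycosylase that removes adenine paired with oxidised guanine. It was K126N in animal 54 (chr4:116816315, exon 6 of 16, quality 55), at a base that is also annotated as splice region. Among the polymerases, Pold1, the catalytic subunit of polymerase delta, had L620P in animal 54 (chr7:44538354, exon 15 of 27, quality 40). Rev3l, the catalytic subunit of the translesion polymerase zeta, had the synonymous A1829A in the same animal (chr10:39824995, quality 64), the highest quality of the 10.

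Of the signalling kinases, Atm, which responds to double-strand breaks, had C2624F in animal 136 (chr9:53453618, exon 54 of 64, quality 33). Atr, which responds to single-stranded DNA at stalled forks, had the synonymous V2296V in animal 108 (chr9:95939350, exon 40 of 47, quality 23), next to a splice site. In double-strand break repair, Prkdc, the catalytic subunit of the DNA-dependent protein kinase, had K3734N in animal 54 (chr16:15833702, exon 79 of 86, quality 35). Blm, a RecQ helicase, had the synonymous P97P in animal 54 (chr7:80513311, exon 3 of 22, quality 26). No 2 animals shared a call, but the calls are few, and sharing of Strelka calls over all genes was not counted here.

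The 10 calls had qualities of 16 to 64 (median 32.5), and 6 reached 30. Over all 4291 exonic, splice or UTR entries of the Strelka single nucleotide lists, 4290 of them an exchange of 1 base for 1 other, the median was 25, and 34.2% reached 30. None of the 10 was also found among the SAMtools variants of its marrow or of any other sample. Of all 4291 such entries, 446 (10.4%) were found in the list of the same marrow and 448 in the list of any sample. The fraction of marrow DNA that carried any of the 10 changes is therefore unknown.

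VarScan2 called no exonic, splice or UTR site in the 37 genes, where 1.48% of RefSeq coding genes had one. It listed 9 somatic calls that name 7 of the genes, 8 of them in introns and 1 upstream of Mdm4, and 1 loss of heterozygosity in an intron of Trp53bp1. In Atm of animal 108 an intronic change (chr9:53473358) had 26 of 47 reads in marrow and 5 of 26 in ear, 55.3% against 19.2%, with the authors' somatic p-value at 0.00256. In Trp53bp1 of the same animal neighbouring intronic changes at chr2:121221399 and chr2:121221401 each had 18 of 34 marrow reads, against 1 of 11 and 1 of 9 ear reads. With introns counted, animal 108 also had 39 inherited sites named for Atm and 86 for Trp53bp1. Whether these intronic calls, which had variant reads in ear too, are inherited was not tested. The change in an intron of Pole, the catalytic subunit of polymerase epsilon, had 5 of 12 reads in marrow and 0 of 10 in ear of animal 136 (chr5:110293926). VarScan2 tests each call on its own reads, and its p-values are not adjusted.

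**Figure D2:**
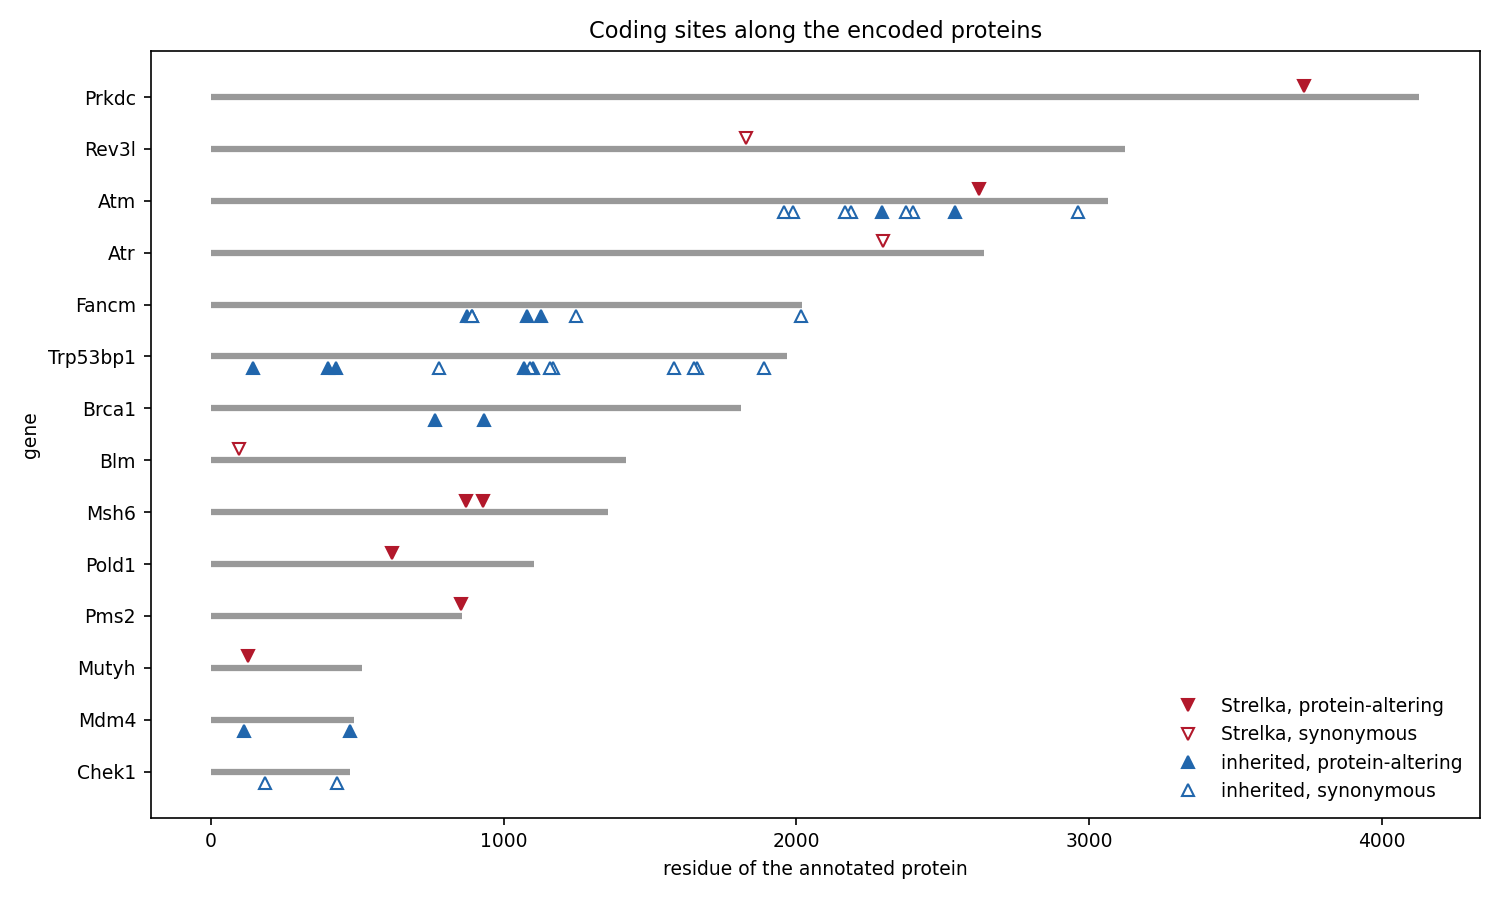
Coding sites along each annotated protein (horizontal axis, residue number; grey bars, full length), with Strelka calls above the bar and inherited sites below it. Filled marks are protein-altering and open marks synonymous; the 9 inherited Atm sites lie between residues 1959 and 2962, and the 3 Strelka calls in mismatch repair proteins have no inherited site beside them.

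Inherited variation was uneven over genes and animals. Animal 108 had 47 inherited sites in 9 of the genes, animal 54 had 11 in 5 genes and animal 136 had 2 in 2 genes. Of the 56 distinct sites, 15 were protein-altering, in 6 genes (Trp53bp1, Atm, Mdm4, Brca1, Fancm and Pold1); the count was 4 without animal 108. That is 16.2% of the 37, where 6.68% of RefSeq coding genes had an inherited protein-altering site. Here too the 37 genes were longer (median span 47.9 kb against 17.2 kb), and the part of gene length was not tested. The other 41 were mostly synonymous (20), splice region (7) or 3' UTR (7). Pold1 is among the 6 genes by annotation only, as its site is a repeat deletion that leaves the letters at the splice donor the same.

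Trp53bp1, whose product 53BP1 gathers at breaks and favours end joining over recombination, had 26 inherited sites, all in animal 108. They ran over 74.8 kb, from chr2:121195102 to chr2:121269895. Marrow fractions were between 38.0% and 62.5% (median 45.8%) and ear fractions between 37.5% and 64.9% (median 47.9%), so that all stood around the level of a heterozygous site. With introns counted, animal 108 had 86 inherited sites named for this gene, and the other animals had 0.

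The protein-altering sites in 53BP1 were 3 missense changes and 2 in-frame deletions. K1071N (chr2:121216105, exon 17 of 28) had 41 of 84 marrow reads, 48.8% (95% Clopper-Pearson interval 37.7% to 60.0%), and 43 of 70 ear reads, 61.4% (49.0% to 72.8%). A427T (chr2:121243989) had 27 of 71 marrow reads (38.0%, 26.8% to 50.3%), against 26 of 56 ear reads (46.4%, 33% to 60.3%). V401A (chr2:121244066), also in exon 11, had 23 of 47 marrow reads (48.9%, 34.1% to 63.9%), against 23 of 40 ear reads (57.5%, 40.9% to 73.0%). In each of the 3 the ear fraction was the higher one and the intervals overlapped.

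Both deletions removed a unit that stands in tandem in the reference allele, and they are shown because the letters make this visible. The longer, in exon 17, takes out residues Gln1101 to Glu1106: its 18 bases (chr2:121216002-121216019) stand 2 times in the 40-base reference allele and once in the variant allele. The shorter, in exon 5, removes Glu145 (chr2:121259202-121259204), 1 of 3 copies of a 3-base unit. Both are written on the plus strand of GRCm38, and Trp53bp1 lies on the minus strand. In the first line capitals mark the unit left in the variant allele, and in the second the bases deleted from the reference allele.
Trp53bp1 exon 17, variant allele: ggctCCTGTGAGGCCCTCTGCT
Trp53bp1 exon 5, reference allele: tctcctcCTC
The exon 17 deletion had 16 of 38 marrow reads (42.1%, 26.3% to 59.2%), against 18 of 48 ear reads (37.5%, 23.9% to 52.6%). The Glu145 deletion had 41 of 90 marrow reads (45.6%, 35% to 56.4%), against 40 of 88 ear reads (45.5%, 34.8% to 56.4%). Within the same 40 bases of exon 17, 2 further calls each stood in 1 tissue of animal 108: Q1105P in 13 of 58 marrow reads (22.4%), and an insertion of 6 bases in 7 of 49 ear reads (14.3%).

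Atm had 9 inherited sites, again only in animal 108, over 31.2 kb from exon 39 to exon 63. The missense T2542M (chr9:53454750, exon 52) had 54 of 114 marrow reads (47.4%, 37.9% to 56.9%), against 40 of 78 ear reads (51.3%, 39.7% to 62.8%). The missense I2294L (chr9:53458931, exon 48) had 11 of 33 marrow reads (33.3%, 18% to 51.8%), against 17 of 32 ear reads (53.1%, 34.7% to 70.9%). The other 7 were synonymous. Over the 9 sites marrow ran from 33.3% to 54.8% and ear from 32.8% to 69.2%, with the higher fraction in marrow at 4.

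Chek1, the kinase that Atr activates, had 2 synonymous sites (V431V and F184F) and 1 in its 5' UTR (chr9:36725970) in animal 108, at 41.6% to 55.8% in marrow and 49.4% to 53.8% in ear. Mdm4, which binds and restrains p53, had 4 inherited sites over 27.1 kb in animal 54 and none in the other animals. Its missense I113N (chr1:133009145, exon 5 of 11) had 37 of 84 marrow reads (44.0%, 33.2% to 55.3%), against 52 of 112 ear reads (46.4%, 37% to 56.1%). A476V (chr1:132991702, last exon) had 106 of 212 marrow reads (50.0%, 43.1% to 56.9%), against 162 of 360 ear reads (45.0%, 39.8% to 50.3%). Reads over A476V had a mapping quality of 25 in marrow and 26 in ear, where the other 3 Mdm4 sites had 42. These 3 were I113N and a pair of splice region sites in introns, at 40.4% and 44.0% in marrow and 35.8% and 51.4% in ear.

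Brca1, which directs breaks into homologous recombination, had 2 inherited missense sites in its exon 10, both in animal 108. C933S (chr11:101524509) had 152 of 323 marrow reads (47.1%, 41.5% to 52.7%), against 126 of 292 ear reads (43.2%, 37.4% to 49.0%), the deepest marrow coverage of any inherited site in these genes. S765P (chr11:101525014) had 21 of 52 marrow reads (40.4%, 27.0% to 54.9%), against 21 of 36 ear reads (58.3%, 40.8% to 74.5%).

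Fancm, a DNA translocase that brings the Fanconi anaemia core complex to crosslinks, was the 1 gene with heterozygous coding sites in 2 animals. Animal 108 had V876I (chr12:65105397), at 24 of 57 marrow reads (42.1%, 29.1% to 55.9%), against 23 of 58 ear reads (39.7%, 27.1% to 53.4%). It also had A1081V (chr12:65106013), at 74 of 137 marrow reads (54.0%, 45.3% to 62.6%), against 52 of 98 ear reads (53.1%, 42.7% to 63.2%). Animal 54 had neither of these but had P1127S (chr12:65106150), at 54 of 105 marrow reads (51.4%, 41.5% to 61.3%), against 86 of 181 ear reads (47.5%, 40.1% to 55.0%). The synonymous L893L was inherited in both animals, and all 4 of these sites lie in exon 14 of 23. Introns included, animals 54 and 108 had 12 and 9 inherited sites named for Fancm, 3 of them in common, and animal 136 had 0.

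Pold1 carried the 1 inherited site of high impact, a 2-base deletion that the annotation places on the splice donor after exon 20 (intron 20 of 26, chr7:44535015-44535016). It sits at the end of an AC repeat of which the reference allele holds 18 copies and the variant allele 17. The last 24 bases of the reference allele (chr7:44534993-44535016, GRCm38, plus strand; Pold1 lies on the minus strand) are shown with the 2 bases annotated as deleted in capitals, above the matching end of the variant allele.
Pold1 reference allele, end: acacacacacacacacacacacAC
Pold1 variant allele, end: acacacacacacacacacacac
Both alleles end in AC, which is GT on the strand of Pold1, so the letters at the donor are the same with and without the deletion. It was called in 7 of 14 marrow reads and 5 of 35 ear reads of animal 54, 50.0% (23.0% to 77.0%) against 14.3% (4.81% to 30.3%). Animal 108 had 5 of 25 marrow reads (20%, 6.83% to 40.7%), against 4 of 14 ear reads (28.6%, 8.39% to 58.1%). In animal 136 it stood in the ear list only, in 4 of 20 reads.

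The remaining splice region sites outside these genes had their variant reads on a single strand. In Wrn, a RecQ helicase, a C>A change in intron 28 of 33 (chr8:33257066, plus strand) was inherited in animals 54 and 108 and in the marrow list alone of animal 136. In animals 54 and 108 it made up 30.6% and 37.1% of reads in marrow, against 31.1% and 23.3% in ear, with all variant reads on the reverse strand. In Atr, a C>T change in intron 9 of 46 (chr9:95871427) was inherited in animals 108 and 136, at 18.8% and 27.9% in marrow and 28.6% and 27.8% in ear, with all variant reads on the forward strand. Fanci, the partner of Fancd2, had an A>T change in intron 1 of an annotated transcript (chr7:79395885) in animal 54 in 2 of 14 marrow reads (14.3%), against 6 of 24 ear reads (25.0%), all on the forward strand. Repeat-length changes in the 3' UTR of Ercc6 (animal 108) and Fanca (animal 136), genes of nucleotide excision and crosslink repair, completed the inherited class at 14.3% to 26.3%. Of the 60 pairs of an inherited site and an animal, 50 had variant reads on both strands, with a median fraction of 46.7%, and 10 on 1 strand, with a median of 30.8%. Not all of the 10 were low: they included non-coding exon sites of Trp53bp1 in animal 108, at 40.0% to 64.9%.

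No inherited site in these genes had a variant fraction above 69.2% in either tissue. Over all genes 2.39%, 1.82% and 7.99% of inherited exonic, splice or UTR sites in animals 54, 108 and 136 reached 90% in both tissues, against 0 of 11, 0 of 47 and 0 of 2 in the repair and checkpoint genes.

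The surroundings of the genes were as uneven as the genes. Inherited single nucleotide sites were counted from 0.5 Mb before each gene to 0.5 Mb after it. In animal 108 at least 50 such sites stood around 7 of the 37 genes (18.9%), where 12.3% of RefSeq coding genes reached 50. These were Trp53bp1 (917 sites), Trp53 (317), Brca1 (231), Ercc6 (129), Atm (70), Chek1 (53) and Fancm (51). In animal 54 it was 2 genes, Mdm4 (365) and Fancm (74), or 5.41% against 7.41% of coding genes. In animal 136 it was none, against 1.87%, and no gene had more than 15. The 6 genes of animal 108 with an inherited site among those 7 held 44 of its 47 sites; Trp53 had none. Mdm4 and Fancm held 8 of the 11 sites of animal 54. Medians over the 37 genes were 4, 6 and 3 sites in animals 54, 108 and 136, against 3, 3 and 2 over coding genes.

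**Figure D3:**
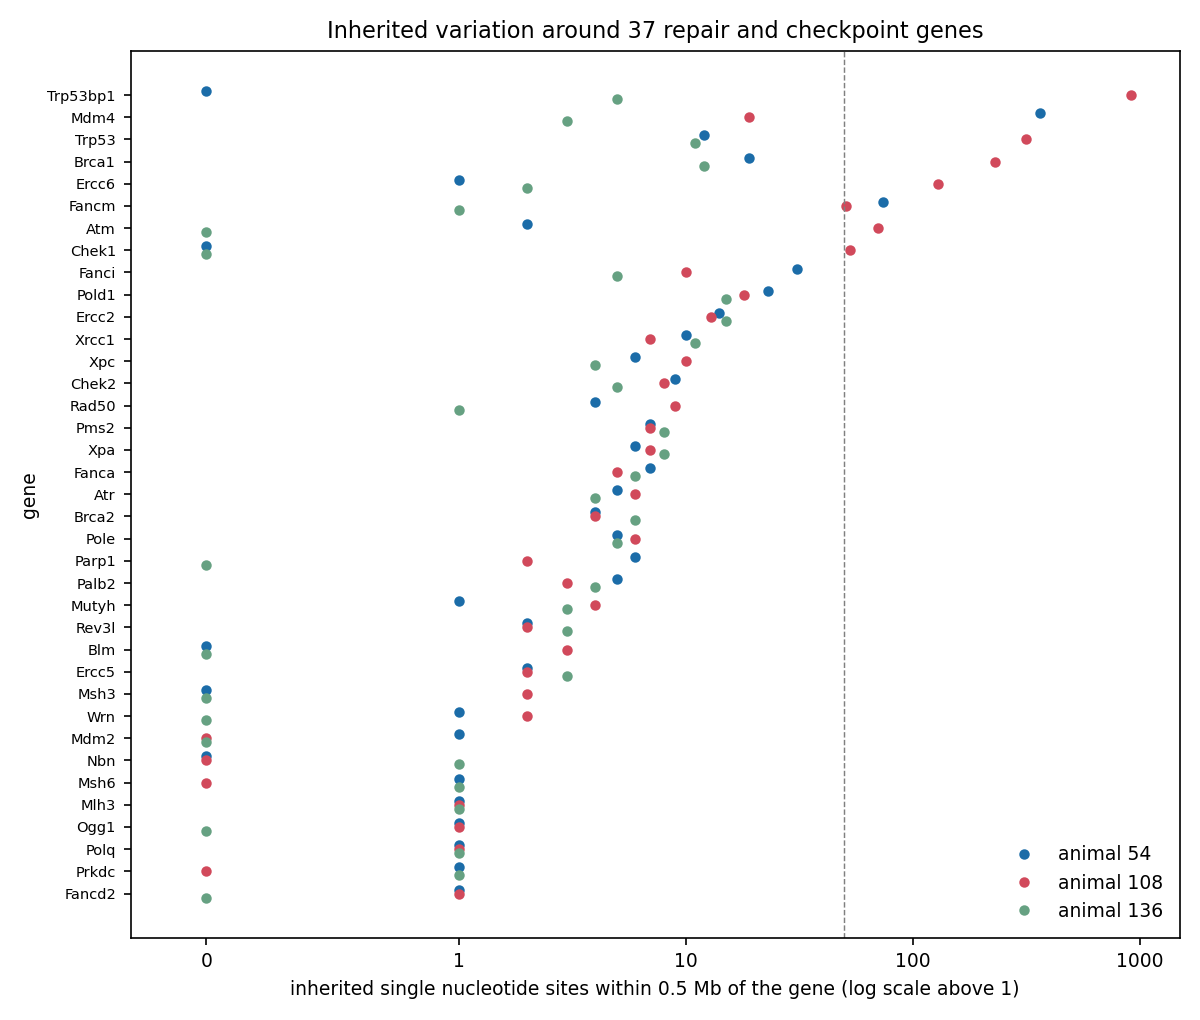
Inherited single nucleotide sites from 0.5 Mb before to 0.5 Mb after each of the 37 genes (horizontal axis, logarithmic above 1), 1 point per animal; the dashed line marks 50 sites. Most genes have similar low counts in all animals, while Trp53bp1 has 917 sites in animal 108 and Mdm4 365 in animal 54, against at most 19 in the other animals.

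The somatic lists and the inherited sites were then compared for what the changes do to the protein, counting a site once per animal. Of the single nucleotide sites that were protein-altering or synonymous, 7 of 10 Strelka calls were protein-altering, 70.0% (34.8% to 93.3%), against 12 of 33 inherited sites, 36.4% (20.4% to 54.9%). The intervals overlap. By animal the shares were 60.0% against 50.0% in animal 54 and 66.7% against 33.3% in animal 108. Animal 136 had 2 of 2 Strelka calls protein-altering and no inherited coding single nucleotide site. The mean difference was 21.7 ± 16.5 percentage points (SD, n = 2 animals). It was 45.8 ± 29.5 points (SD, n = 2 animals) with a Strelka quality of at least 30 and a VarScan2 p under 0.01. The Strelka share of animal 108 then rested on Pms2 D854Y alone. With every site called in ear taken as inherited, the difference was 13.7 ± 15.8 points (SD, n = 3 animals). The inherited share of animal 136 then rested only on Prkdc A2012E and N4055K, called in 4 of 13 and 2 of 12 ear reads. Over all genes the somatic lists were at 73.5% and the inherited sites at 38.3%, a difference of 33.6 ± 3.92 points (SD, n = 3 animals), so both shares in the repair and checkpoint genes stood near those of all genes.

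The kinds of base change also differed. Read from the pyrimidine of each pair, C>A made up 6 of the 10 Strelka calls, 60.0% (26.2% to 87.8%), against 1 of 49 inherited single nucleotide sites, 2.04% (0.0517% to 10.8%), each inherited site being counted once. These intervals do not overlap, but they treat sites as independent. Of the 56 inherited sites of any type, 26 lay in Trp53bp1 of animal 108. The contrast was not tested by animal. The 1 inherited C>A was the Wrn intron site. Over all genes C>A was 40.1% of Strelka calls and 8.25% of inherited sites, so the same contrast was seen there. On the coding strand 5 of the 6 were G>T (Mutyh, Prkdc, Pms2, Atm and Msh6 D931Y) and 1 was C>A (Msh6 L871I), where 49.0% of 1721 such calls over all genes were G>T. With only 6 calls, a strand difference was not tested. Transitions, C>T and T>C together, were 4 of 10 Strelka calls (40.0%) and 37 of 49 inherited sites (75.5%), against 51.2% and 71.4% over all genes.

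Amino acid exchanges were scored with BLOSUM62, in which exchanges that are rare between related proteins score below 0. The 7 Strelka missense changes had a median of -2, with D931Y, D854Y and L620P at -3 and L871I at 2. The 12 inherited missense changes had a median of 0, with I113N of Mdm4 at -3 as the lowest and V876I of Fancm at 3 as the highest. Scores below 0 were 4 of 7 and 5 of 12, 57.1% and 41.7%. Over all genes they were 49.8% of Strelka and 38.0% of inherited missense changes, both with a median of 0.

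**Figure D4:**
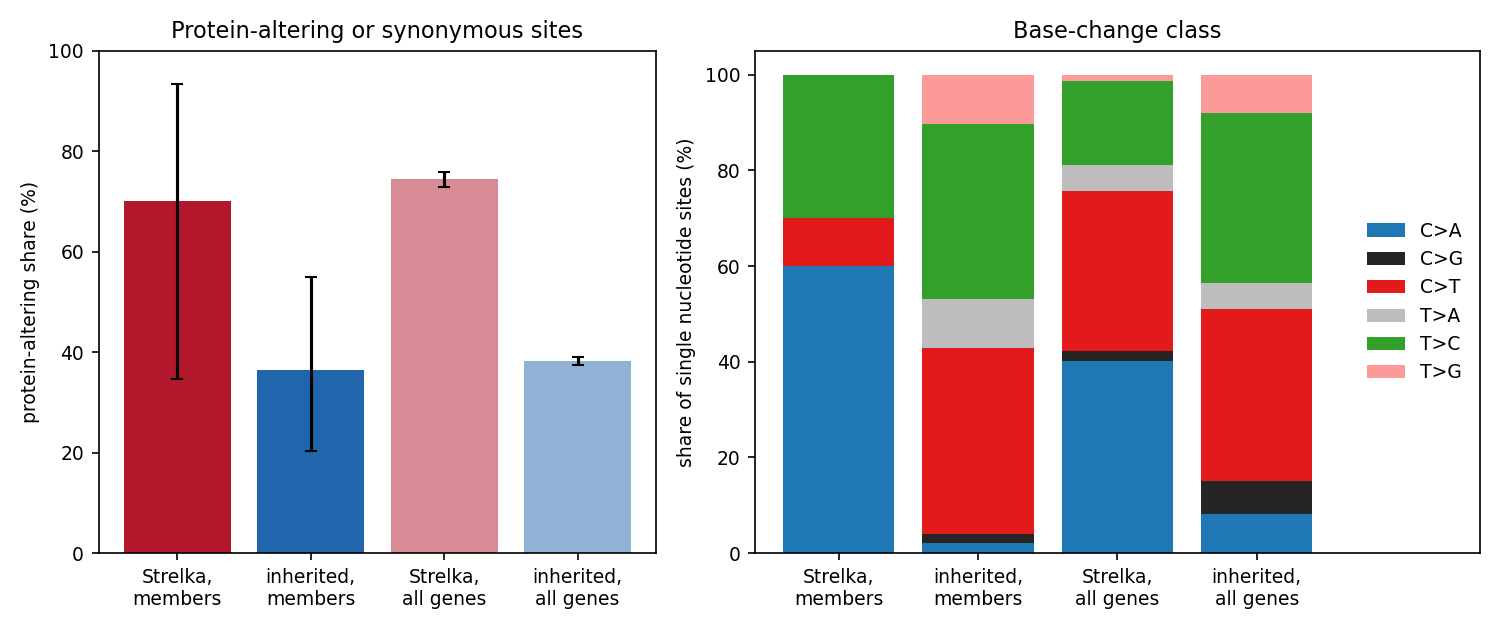
Left, share of protein-altering sites (vertical axis, percent) among protein-altering and synonymous single nucleotide sites, summed over animals, with 95% Clopper-Pearson intervals; right, share of each base-change class (vertical axis, percent). Strelka calls and inherited sites are shown for the 37 genes (members) and for all genes: C>A is 60.0% of the Strelka calls and 2.04% of the inherited sites in the members.

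Whether an inherited allele had gained or lost ground in marrow was tested at each site with at least 10 reads in both tissues, by a two-sided Fisher exact test on reads with adjustment over all sites of the animal. In animal 108 0 of 47 sites in these genes passed an adjusted p of 0.05, where 0.0327% of 48977 sites did. In animal 54 it was 0 of 11, beside 0.0346% of 31835 sites, and in animal 136 0 of 2, beside 0.0181% of 11026. At an unadjusted p of 0.05, 1 of 47 passed in animal 108 (2.13%, background 7.43%), 1 of 11 in animal 54 (9.09%, background 8.41%) and 0 of 2 in animal 136 (background 6.22%). The pair were the synonymous A2187A of Atm in animal 108 and the Pold1 repeat deletion in animal 54. A2187A had 43 of 87 marrow reads (49.4%), against 22 of 67 ear reads (32.8%), with an exact p of 0.0485 and an adjusted p of 0.665. The Pold1 deletion, with the counts given above, had an exact p of 0.023 and an adjusted p of 0.502.

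For the 4 sites inherited in 2 animals (Fancm L893L, Pold1, Wrn and Atr), marrow and ear were also compared over animals with the Cochran-Mantel-Haenszel test, each animal being a stratum. None passed an adjusted p of 0.05, beside 0.0175% of 11402 sites, and none passed unadjusted, beside 6.56%. The lowest unadjusted value was 0.22, for Pold1. The median difference of marrow minus ear was -1.94 percentage points over 11 sites in animal 54, -0.926 over 47 in animal 108 and 5.16 over 2 in animal 136. Those 2 were the Atr intron change, with variant reads on 1 strand, and the Fanca repeat deletion. The mean of the medians, 0.765 ± 3.84 points (SD, n = 3 animals), was smaller than the spread between animals. It was negative without animal 136 (-1.43) or at heterozygous sites alone (-1.06). Over all genes it was -0.0298 ± 0.0516 points (SD, n = 3 animals). Depths of 11 to 360 reads, with a median of 67.5, leave wide intervals at single sites, as given above, and shifts within them were not detectable.

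**Figure D5:**
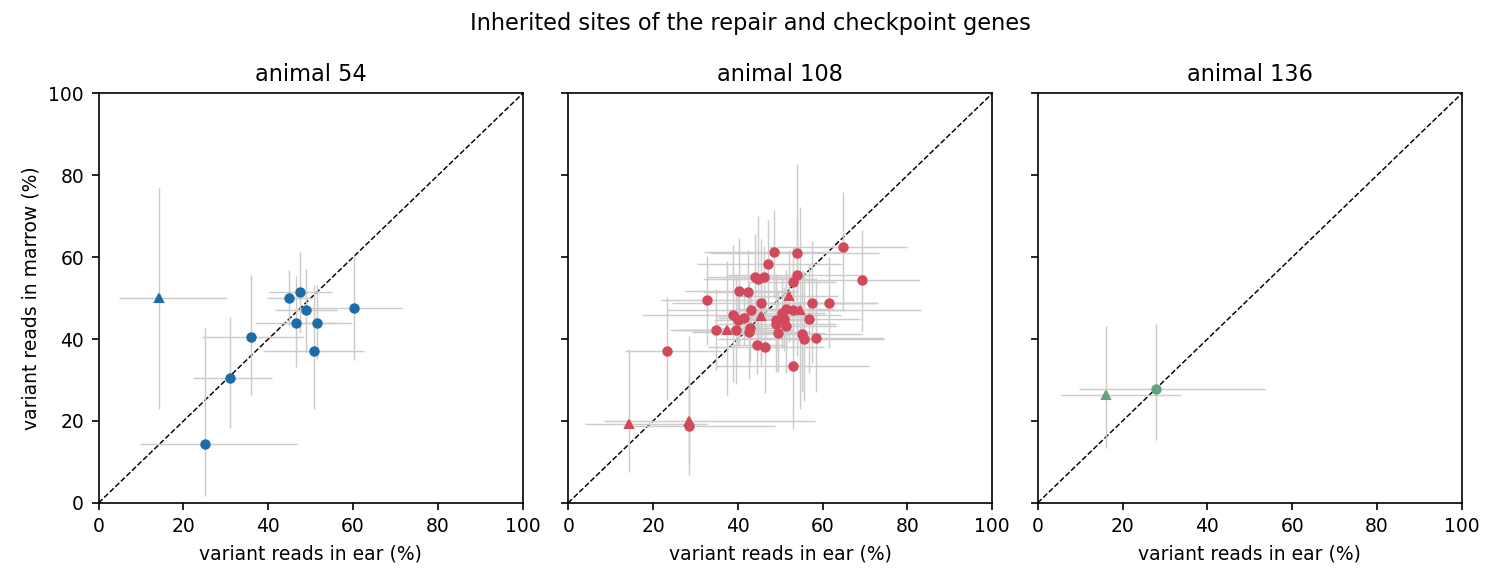
Percent of reads with the variant in marrow (vertical axis) against ear (horizontal axis) at the inherited sites of the repair and checkpoint genes, 1 panel per animal; circles are single nucleotide sites, triangles insertions or deletions, grey lines 95% Clopper-Pearson intervals and the dashed line equality. The points of animals 54 and 108 gather around the line of equality, and the triangle at 50.0% in marrow and 14.3% in ear of animal 54 is the Pold1 repeat deletion.

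Sites called in only 1 tissue of an animal formed the third class. There were 11 distinct sites in 7 genes in marrow lists alone and 17 in 13 genes in ear lists alone, 28 in all, and 4 of them were inherited in another animal. Of the 30 pairs of such a site and an animal, 22 had at most 5 variant reads and 22 had variant reads on 1 strand only, with a median depth of 19 reads. A list gives no depth at an uncalled site, so the absence of a call in the other tissue has no read count behind it. This class was not counted over all genes, so whether the repair and checkpoint genes differ in it was not tested.

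Of these sites 7 were protein-altering: Polq and Trp53bp1 Q1105P in marrow, and Brca1, Pold1, the Trp53bp1 insertion and a pair in Prkdc in ear. The Pold1 site was the repeat deletion, counted by its annotation. Polq, the polymerase of theta-mediated end joining, had a splice acceptor change (chr16:37017197) in 5 of 16 marrow reads of animal 54, all on the forward strand. K1704E of Brca1 (chr11:101493600) had 2 of 17 ear reads in animal 108. A2012E and N4055K of Prkdc (chr16:15731608 and chr16:15839207) had 4 of 13 and 2 of 12 ear reads in animal 136. The only site in Trp53 was a 3' UTR change (chr11:69591582) in 3 of 22 ear reads of animal 136, all on the reverse strand. The highest fraction of the class was a 5' UTR site of Chek1 (chr9:36726155) in animal 108, in 10 of 17 marrow reads (58.8%), all on the reverse strand.

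Beyond the 37 genes, 71 other repair genes were counted from a separate list. A site of any class was found in 40 (56.3%), an exonic, splice or UTR Strelka call in 17 (23.9%) and a protein-altering Strelka call in 9 (12.7%), beside 64.9%, 24.3% and 16.2% for the 37. An inherited protein-altering site was found in 9 of the 71 (12.7%), and no VarScan2 call. Their median span was 25.6 kb. Mbd4 D129N and a Lig1 frameshift (Leu689fs) counted as inherited in all 3 animals, whereas no protein-altering site in the 37 genes did. Read counts, strands and surrounding bases of these Mbd4 and Lig1 sites were not examined here. Whether the Lig1 frameshift is a repeat-length call, like the Pold1 deletion, was therefore not tested.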

How the data were processed

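Genomic DNA of marrow and ear had been captured with a 50 Mb exon kit, per the labels' protocols. FastQC, Bowtie2, SAMtools, GRCm38 and mm9 are listed, without roles, per the submitters' processing notes; all but 1 of the member sites lay inside their gene's RefSeq span in GRCm38.p6, so positions are given as GRCm38. The deposited all-variant lists hold read counts per allele and strand, the authors' VarScan2 tables read counts in marrow and ear with a somatic p-value, and the Strelka lists a quality. The callers' filters: not given in the sources used here. The VarScan2 column assigned to marrow was closer to the marrow list at 440 of 441, 977 of 979 and 263 of 263 sites of animals 54, 108 and 136.

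A protein change is named for the highest-impact annotation and, among equals, the longest protein. Tests (scipy 1.17.1) ran on all sites with at least 10 reads in each tissue, with Benjamini-Hochberg adjustment, and were run on simulated data. The simulated data held large planted shifts and independent reads, so that run does not measure power or false calls in these data. Per the labels a shared number is a shared animal, and the animal served as block. Intervals are at 95% and cover counting error only (there are no molecular identifiers, and PCR copies are not independent); neighbouring sites share reads and haplotypes. BLOSUM62 came from Biopython 1.88. The rule for named genes took those with a Strelka call, an inherited protein-altering or splice site, or a site past a test. Genes described outside it (Chek1, Ercc6, Fanca, Pole and those with one-tissue sites alone) were chosen after their values were seen. The members and lists were chosen with earlier results of these data known.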

Additional observations from a re-analysis of the deposited data

How the results depend on the processing

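The count of genes with a site was 24, and 20 to 22 with 1 animal left out, 24 with one annotation per site and 22 in all-variant lists alone. The 15 inherited protein-altering sites were 4 to 15 with an animal left out (4 without animal 108), 0 if all 3 animals had to carry them, 19 if called in ear and 14 at 20 reads or more. Both the 15 and the 4 include the Pold1 repeat deletion, which counts by its annotation only. The 7 protein-altering somatic calls were 4 to 5 with an animal left out, 5 at the stricter thresholds (VarScan2 p under 0.01, Strelka quality of at least 30), 7 by Strelka alone, 0 by VarScan2 alone and 0 when also required in the marrow list. The difference in protein-altering share, 21.7 points, was 45.8 (SD 29.5, n = 2 animals) at the stricter thresholds, 13.7 with sites called in ear, and 10 to 33.3 with an animal left out. Sites called in ear brought in animal 136 through low-read Prkdc calls alone. The median marrow minus ear difference, 0.765 points, was -1.06 at heterozygous sites only, 2.44 at 20 reads or more and -1.43 to 2.12 with an animal left out, negative without animal 136, which has 2 sites. The cause was not tested. No member site tested passed an adjusted p of 0.05 within an animal or over animals under the alternatives. Over animals few could be tested: 4 in all, 1 without animal 54, 0 without animal 108, 3 without animal 136 and 2 at 20 reads or more. Without the replicate block, reads summed over animals gave 0 member sites and 19 of 11402 in all, against 2 with it and 5 to 12 with an animal left out. Read depth and the lack of counts in the Strelka lists limit every statement on single sites.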
